A study of Homo sapiens with 12 samples.

Results

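Unirradiated HCA2 fibroblasts with a hairpin against FBXO22 (shFbxo22 young) were set against HCA2 fibroblasts with a control hairpin that had been made senescent by ionizing radiation (shLuc senescent). HCA2, also called MJ90, is an established human skin fibroblast line, and both hairpins are expressed from a promoter switched on by doxycycline. The groups compared hold 6 of the 12 libraries of the series, 3 in each, and another 3 libraries, the control hairpin at low passage (shLuc young), are the common baseline. The last group, 3 libraries labelled shFbxo22 senescent, entered a check only. The irradiation protocol names a dose of 10 Gy for every sample, and the condition label separates irradiated cells from low-passage cells. The labels used here give neither the time between irradiation and harvest nor when doxycycline was added, and they name 1 hairpin for each target.

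The data are tables of the authors' own comparisons, computed with DESeq2 per the submitters' processing notes, and no table pairs shFbxo22 young with shLuc senescent. For each gene the log2 fold change of shFbxo22 young over shLuc young (the hairpin change) was therefore taken minus that of shLuc senescent over shLuc young (the senescence change). The result, called the difference below, is positive where a transcript was higher in shFbxo22 young. Of 55765 rows in each table, 9109 genes were compared, those whose base mean reached 200 in each of the 4 tables. A base mean is a row's normalized count averaged by the authors over the 6 libraries of a table. Group means are given in normalized counts and were rebuilt from the base means and fold changes of the authors' deposited tables. The tables hold no value per library, so depth per library is unknown, the spread of single libraries cannot be printed, and whether the libraries of 2 groups overlap cannot be said. Errors are standard errors, those of the 2 fold changes as deposited and that of the difference from both together. Separate cultures behind the 3 libraries of each group are not stated in the labels, so these errors may be technical.

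FBXO22 is an F-box protein, the part of an SCF ubiquitin ligase that holds the substrate, and its known substrates include the histone demethylase KDM4A and, together with KDM4A, methylated p53. p53 is a transcription factor activated by DNA damage and other stress, and its target CDKN1A encodes p21, which blocks cyclin-dependent kinases and so halts the cell cycle. Senescent cells have left the cell cycle permanently, and they are known for enlarged lysosomes, secretion of cytokines and proteases, and an interferon response.

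FBXO22 had a mean of 249 normalized counts in shFbxo22 young, 369 in shLuc senescent and 438 in shLuc young libraries. The hairpin change was -0.81 ± 0.15 in the authors' deposited table, in the direction of the label. The difference from shLuc senescent was -0.56 ± 0.21 (z test, Benjamini-Hochberg adjusted p = 0.0209). In the libraries labelled shFbxo22 senescent FBXO22 goes against its label, being higher than in shLuc senescent libraries. The differences below do not use those libraries, except in the check through the other 2 tables and in the base mean floor. KDM4A was alike in both groups, at 375 normalized counts in shFbxo22 young and 372 in shLuc senescent. Of 21 fibroblast markers, 20 passed the base mean floor, with LUM, a proteoglycan of connective tissue, at 21477 normalized counts in shFbxo22 young and 23722 in shLuc senescent. Of 12 immune cell markers none passed it, and their highest base mean in the tables with shLuc young was 30.8 (CD14). No endothelial marker of 9 passed either, although KDR reached base means of 299 and 374 in those tables. The lowest base mean of KDR, in a table without shLuc young, was 3.63. Of 13 keratinocyte markers DSP and PERP passed, and the highest base means of the others in those tables were 149 for CDH1, 40.7 for KRT10 and 25.3 for KRT15, while KRT14 and KRT5 reached 0.333 and 0.165. Of 7 melanocyte markers MITF passed, PMEL reached 30.9, and MLANA and TYR were at 0.17 or less. The part of these transcripts in the results was not tested.

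The 2 groups differed in p53 targets, actin and contraction genes and cell division genes, which were higher in shFbxo22 young, and in interferon, lysosomal, amino acid stress and iron genes, which were lower in shFbxo22 young than in shLuc senescent. Cytosolic ribosomal protein genes were alike in the 2 groups in 58 of 80 cases, while sterol genes (16 of 31) and clustered histones (22 of 43) were alike about as often as all genes. At an adjusted p of at most 0.05 over all 9109 genes, 1966 genes (21.6%) were higher in shFbxo22 young and 1679 (18.4%) were lower. A gene was called alike where the 90% interval of its difference lay within 1.5-fold, and this held for 4395 genes (48.2%), of which 153 were also called different by less than 1.5-fold. Another 1222 genes were neither called nor alike. The median difference over all genes was 0.02 and the 5th and 95th percentiles were -0.93 and 0.94. A called difference of at least 2-fold was found for 414 genes in the higher and 361 in the lower direction. Past 8-fold there were 12 genes higher and 0 lower, a split whose size depends on the floor. With a base mean of 200 in at least 1 of the 2 tables that hold shLuc young, a setting added after the data had been seen, 10164 genes were tested, and 32 were higher and 27 lower past 8-fold. A floor of 50 in all 4 tables gave 32 higher and 11 lower, and no floor gave 79 higher and 60 lower. More genes were higher than lower in each of these settings.

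For the parent comparisons, the authors' deposited tables called 2422 of 9106 genes (26.6%) higher and 1959 (21.5%) lower in shFbxo22 young over shLuc young. In shLuc senescent over shLuc young they called 2920 of 9109 (32.1%) higher and 2828 (31%) lower. These comparisons share the shLuc young libraries. The shared baseline cancels from the difference, while its error was counted in both standard errors, which makes the calls cautious. The 2 groups differ in hairpin and in irradiation at once, and each of the 2 was measured on its own against shLuc young.

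**Figure D1:**
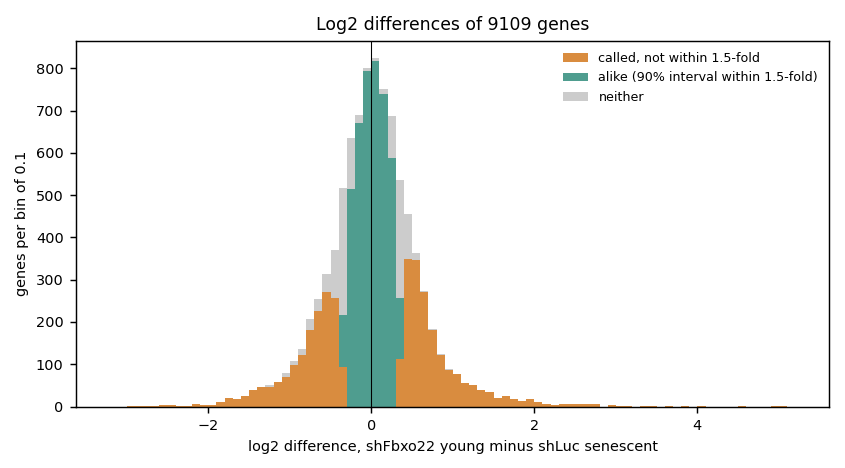
Number of genes (y axis, per bin of 0.1) by log2 difference between shFbxo22 young and shLuc senescent (x axis) for 9109 genes, coloured by call. The distribution is centred near 0 with a median of 0.02, and its right tail, higher in shFbxo22 young, reaches 5.06 against -2.98 on the left.

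p53 targets were higher in shFbxo22 young than in shLuc senescent in 22 of the 26 list members that passed the floor, of 38 listed. FBXO22, itself on the list, was lower, SESN2 was alike, and RRM2B and GDF15 were not resolved. The median difference of the list was 1.02, beside 0.02 over all genes. The authors' deposited tables had 25 members higher and 1 lower in shFbxo22 young over shLuc young, and 15 higher and 4 lower in shLuc senescent over shLuc young. CDKN1A averaged 16209.5 normalized counts in shFbxo22 young, 3026 in shLuc senescent and 703 in shLuc young libraries. The order was therefore shFbxo22 young, then shLuc senescent, then shLuc young. The hairpin change of CDKN1A was 4.51 ± 0.10 and its senescence change 2.12 ± 0.10 in the authors' deposited tables, a difference of 2.39 ± 0.14 or 5.24-fold (z test, Benjamini-Hochberg adjusted p = 2.6e-66). MDM2, the ubiquitin ligase that degrades p53, averaged 3173 in shFbxo22 young, 989.9 in shLuc senescent and 799 in shLuc young, a difference of 1.66 ± 0.15.

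The damage-recognition gene DDB2 and the nuclease gene AEN had opposite directions in the 2 parent comparisons. DDB2 averaged 948 normalized counts in shFbxo22 young, 158 in shLuc senescent and 273 in shLuc young. Its hairpin change was 1.78 ± 0.13 and its senescence change -0.78 ± 0.17 in the authors' deposited tables, and the difference was 2.56 ± 0.21. AEN averaged 1889 in shFbxo22 young, 337 in shLuc senescent and 922 in shLuc young, a difference of 2.47 ± 0.15. Both were thus above shLuc young in shFbxo22 young and below it in shLuc senescent. SESN2, a stress-induced regulator of growth signalling, averaged 1236 in shFbxo22 young, 1150.5 in shLuc senescent and 419.7 in shLuc young. TRIM22, listed both as a p53 target and as an interferon gene, averaged 2183 in shFbxo22 young, 502 in shLuc senescent and 160.4 in shLuc young, a difference of 2.08 ± 0.19.

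**Figure D2:**
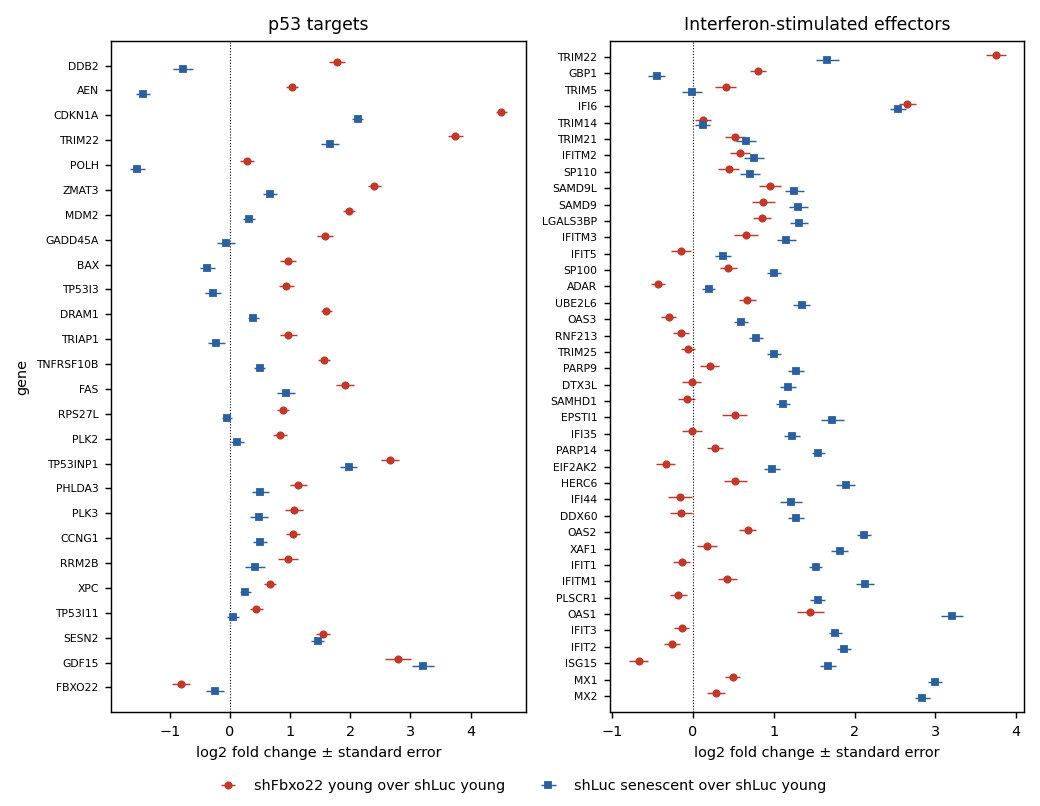
Log2 fold changes ± standard error (x axis, authors' deposited tables) of p53 targets and interferon-stimulated effectors (y axis, ordered by difference), for shFbxo22 young over shLuc young (circles) and shLuc senescent over shLuc young (squares). Circles lie right of squares for 22 called p53 targets and left of them for 31 called interferon genes.

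Of 17 cell cycle inhibitors and senescence markers, 14 passed the floor, and 4 were higher and 4 lower in shFbxo22 young, with 8 alike (2 of them also called). This is a share called of 57.1%, beside 40% of all genes. CDKN2A, which encodes p16 and ARF, averaged 264 normalized counts in shFbxo22 young, 596 in shLuc senescent and 376 in shLuc young. Its hairpin change was -0.51 ± 0.14 and its senescence change 0.66 ± 0.13 in the authors' deposited tables, and the difference was -1.17 ± 0.19. CDKN2B, encoding the inhibitor p15, was alike at 367 in shFbxo22 young and 365 in shLuc senescent, with 122 in shLuc young. The inhibitors CDKN1B and CDKN2C were also alike, with differences of 0.06 ± 0.15 and -0.24 ± 0.16. Among the pocket proteins, which restrain E2F, RB1 was alike (-0.19 ± 0.23) and RBL2 was lower in shFbxo22 young (-0.73 ± 0.14). The chromatin protein gene HMGA2 was higher, at 2646 in shFbxo22 young, 1006 in shLuc senescent and 1740.0 in shLuc young (difference 1.39 ± 0.15), and HMGB1 was higher by 0.55 ± 0.14. HMGB2 was alike, with a difference of 0.13 ± 0.15. GLB1, the gene of the enzyme behind senescence-associated beta-galactosidase staining, averaged 3358 in shFbxo22 young, 4197 in shLuc senescent and 2548 in shLuc young. Its difference of -0.33 ± 0.13 was called but stayed within 1.5-fold, as did that of HMGA1, at -0.29 ± 0.12. Neither was called through the other 2 tables.

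Mitosis genes that passed the floor were below shLuc young in 22 of 22 cases in shFbxo22 young and in 21 of 22 in shLuc senescent, in the authors' deposited tables, and most were less far below it in shFbxo22 young. Cell division itself was not measured. MKI67, the gene of the proliferation marker Ki-67, averaged 1573 normalized counts in shFbxo22 young, 781 in shLuc senescent and 8448 in shLuc young, a difference of 1.01 ± 0.14. Of the 22 mitosis genes that passed the floor, of 52 listed, 19 were higher in shFbxo22 young than in shLuc senescent, 1 was lower and 2 were alike. Their median hairpin change was -1.94 and their median senescence change -2.99 in the authors' deposited tables, and the median difference was 0.95. The floor in all 4 tables removes genes that are low in the irradiated groups. With the floor only in the 2 tables that hold shLuc young, a setting added after the data had been seen, 51 mitosis genes were tested, of which 46 were higher, 1 was lower and 2 were alike, with a median difference of 1.15.

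KIF20A, a kinesin of cytokinesis, averaged 2092 in shFbxo22 young, 359.7 in shLuc senescent and 8119 in shLuc young. Its hairpin change was -1.96 ± 0.11 and its senescence change -4.50 ± 0.12 in the authors' deposited tables, which gave the difference of 2.54 ± 0.16. PTTG1, the gene of securin, averaged 609 in shFbxo22 young, 148 in shLuc senescent and 1804 in shLuc young (2.04 ± 0.16). CCNB1, the mitotic cyclin, averaged 1461 in shFbxo22 young, 379 in shLuc senescent and 6591 in shLuc young (1.94 ± 0.13). All 3 lay between shLuc senescent and shLuc young. CDC25B, a phosphatase that activates cyclin-dependent kinases, was the exception, with 2863 in shFbxo22 young, 7438 in shLuc senescent and 5798 in shLuc young (-1.38 ± 0.13). The condensin subunits SMC2 and SMC4 were alike, with differences of 0.06 ± 0.15 and -0.23 ± 0.14. Below the 4-table floor, CDC20, the activator of the anaphase-promoting complex, chosen here after its values were seen, averaged 937 in shFbxo22 young, 148 in shLuc senescent and 4657 in shLuc young (2.66 ± 0.16). LMNB1, the gene of the nuclear lamin B1 and a senescence marker, averaged 416 in shFbxo22 young, 172 in shLuc senescent and 1399.6 in shLuc young (1.27 ± 0.17).

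Many mitosis genes carry upstream of their start the CHR element, with the core letters TTTGAA, through which the DREAM complex of the p53-p21 pathway represses them. The core was searched on both strands of the RefSeq promoter windows (GRCh38.p14, 250 bases before to 50 after each start, the first window listed for a gene). It was found in 13 of 17 matched mitosis promoters (76.5%), in 587 of 6712 promoters of the genes compared (8.75%) and in 4212 of all 27305 promoters (15.4%). BUB3, TPX2, RACGAP1, BIRC5 and FOXM1 had no entry. Upstream stretches are shown for KIF23 (chr15:69414264-69414329, + strand, difference 1.92), a motor of the central spindle, and ANLN (chr7:36389806-36389861, + strand, difference 1.90), an actin-binding protein of the cleavage furrow. They hold the core upstream of the start and are among the members with large positive differences. KIF20A, PTTG1 and CCNB1, whose differences were larger, lack the core in their windows, as does CDC25B. SMC2 and SMC4, which were alike, hold it, so the core does not separate members by difference. Capitals mark the core or its reverse complement TTCAAA, which abut in ANLN. These matches are letters in a window and were not tested as binding sites.
KIF23: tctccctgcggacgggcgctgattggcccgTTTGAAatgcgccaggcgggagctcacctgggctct
ANLN: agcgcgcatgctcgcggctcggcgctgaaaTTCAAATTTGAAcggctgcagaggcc

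DNA replication and nucleotide genes were split between higher and alike. Of 26 members that passed the floor, of 51 listed, 13 were higher in shFbxo22 young, 0 were lower and 13 were alike, with a median difference of 0.36. TYMS, the gene of thymidylate synthase, averaged 1406 normalized counts in shFbxo22 young, 366 in shLuc senescent and 2551 in shLuc young (1.94 ± 0.14). TK1, encoding thymidine kinase, had a difference of 1.42 ± 0.15. PRIM2, a primase subunit, was close to shLuc young in shFbxo22 young, at 1006, against 374 in shLuc senescent and 984 in shLuc young (1.42 ± 0.17). The helicase subunit MCM2 and the polymerase POLE were alike, with differences of 0.05 ± 0.14 and 0.16 ± 0.15. With the floor in the 2 tables only, 46 members were tested, 26 were higher, 0 were lower and 17 alike.

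Of 30 recombination, Fanconi and checkpoint genes only 8 passed the floor, 6 of them alike. Called members made up 25% of these 8, beside 40% of all genes. BRCA1 averaged 319.5 in shFbxo22 young, 379.8 in shLuc senescent and 1183 in shLuc young. The checkpoint scaffold TOPBP1 was alike as well (0.10 ± 0.15). FANCI, of the Fanconi crosslink repair pathway, was higher in shFbxo22 young (0.75 ± 0.15). ATM, the kinase that signals double-strand breaks, was lower in shFbxo22 young, at 1122 against 2276 in shLuc senescent and 1931 in shLuc young (-0.997 ± 0.39). With the floor in the 2 tables only, 22 members were tested, 6 were higher, 2 were lower and 11 alike.

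Clustered histone genes, transcribed mainly in S phase, were lower than in shLuc young in both groups for all 43 members that passed the floor, in the authors' deposited tables. Between the 2 groups 22 were alike, 9 were higher in shFbxo22 young, 0 were lower and 12 were not resolved. All genes were 48.2% alike, 21.6% higher and 18.4% lower, so the higher histones, 20.9% of the members, were near the general share. With the floor in the 2 tables only, 61 were tested, of which 25 were alike, 12 were higher and 0 were lower. The linker histone HIST1H1B averaged 1608 normalized counts in shFbxo22 young, 1335 in shLuc senescent and 10707 in shLuc young. HIST1H2BL was at 436 in shFbxo22 young and 439 in shLuc senescent, with 2353 in shLuc young. The largest called differences were 0.78 ± 0.18 for HIST1H2BJ and 0.78 ± 0.20 for HIST1H3B. Histone genes have near-identical copies, so values of single members are uncertain.

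Interferon-stimulated effectors stood above shLuc young by a median log2 change of 0.28 in shFbxo22 young and of 1.28 in shLuc senescent, in the authors' deposited tables. Of 40 members that passed the floor, of 51 listed, 31 were lower in shFbxo22 young than in shLuc senescent, 3 were higher, 5 were alike and 1 was not resolved. The median difference was -1.13. The authors' deposited tables had 21 members higher and 5 lower in shFbxo22 young over shLuc young, and 37 higher and 1 lower in shLuc senescent over shLuc young. MX1, a GTPase that blocks viruses, averaged 1994 normalized counts in shFbxo22 young, 11345 in shLuc senescent and 1419 in shLuc young. The hairpin change of MX1 was 0.49 ± 0.10 and the senescence change 2.997 ± 0.08 in the authors' deposited tables, so MX1 was 5.68-fold lower in shFbxo22 young than in shLuc senescent. Its relative MX2 averaged 793 in shFbxo22 young, 4689 in shLuc senescent and 653 in shLuc young (-2.56 ± 0.15). ISG15, a ubiquitin-like modifier, was below shLuc young in shFbxo22 young, at 873, against 4455 in shLuc senescent and 1395 in shLuc young (-2.34 ± 0.16).

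The 3 interferon genes that were higher in shFbxo22 young were TRIM22, given above, the GTPase gene GBP1 and the restriction factor gene TRIM5. GBP1 averaged 1728 in shFbxo22 young, 721 in shLuc senescent and 987 in shLuc young (1.252 ± 0.15). TRIM5 averaged 563 in shFbxo22 young, 421 in shLuc senescent and 424 in shLuc young (0.41 ± 0.18), a call that was lost when differences were centred on the median. IFI6, which inhibits cell death, was alike at a high level, with 9620.4 in shFbxo22 young, 8786 in shLuc senescent and 1520.2 in shLuc young. IFITM2, a membrane protein that restricts viral entry, was alike too (-0.18 ± 0.17); its near-identical relatives make its level uncertain.

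The core of the interferon-stimulated response element, GAAANNGAA, where interferon-activated factors bind, was searched in the same windows on both strands. It was found in 22 of 35 matched interferon promoters (62.9%), in 427 of 6712 promoters of the genes compared (6.36%) and in 2264 of 27305 promoters in all (8.29%). MX2, IFIT2, OAS2, IFITM2 and TRIM22 had no entry. The window of MX1, which had the lowest difference among the matched members, holds the core, but no copy lies wholly before the start. Stretches upstream of the start are shown for the lowest members that hold the core there, ISG15 (chr1:1013354-1013434, + strand), IFIT3 (chr10:89327812-89327914, + strand, difference -1.90) and PLSCR1 (chr3:146544648-146544716, - strand, difference -1.72). IFIT3 is a member of the antiviral tetratricopeptide family and PLSCR1 a phospholipid scramblase. GBP1 (chr1:89065296-89065364, - strand), higher in shFbxo22 young, holds the core as well. Capitals mark the core or its reverse complement, with 3 overlapping copies in ISG15. Members with opposite differences thus share the letters, and no match was tested as a site.
ISG15: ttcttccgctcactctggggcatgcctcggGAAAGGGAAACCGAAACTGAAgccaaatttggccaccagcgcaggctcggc
IFIT3: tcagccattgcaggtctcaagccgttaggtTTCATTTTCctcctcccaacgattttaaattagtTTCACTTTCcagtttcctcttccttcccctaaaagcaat
PLSCR1: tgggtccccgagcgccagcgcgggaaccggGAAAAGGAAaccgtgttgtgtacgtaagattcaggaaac
GBP1: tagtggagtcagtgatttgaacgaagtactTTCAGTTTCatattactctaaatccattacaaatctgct

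The genes that sense nucleic acids and relay interferon signals followed the effectors in part. Of 23 members that passed the floor, 12 were lower in shFbxo22 young, 0 were higher and 9 were alike. DDX58, encoding the RNA sensor RIG-I, averaged 498 normalized counts in shFbxo22 young, 2230.4 in shLuc senescent and 637 in shLuc young (-2.16 ± 0.18). IFIH1, the gene of the RNA sensor MDA5, had a difference of -1.55 ± 0.19. IFI16, a sensor of DNA, averaged 3117 in shFbxo22 young, 8423 in shLuc senescent and 4299 in shLuc young (-1.43 ± 0.14). The regulator IRF2 and the kinase TYK2 were alike, with differences of -0.11 ± 0.17 and 0.05 ± 0.18.

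Antigen presentation genes were called about as often as all genes, with 5 of 20 lower, 3 higher in shFbxo22 young and 11 alike, and had a median difference of -0.17. The authors' deposited tables had 14 members higher in shFbxo22 young than in shLuc young, and 15 higher in shLuc senescent than in shLuc young. HLA-B averaged 18285 in shFbxo22 young, 19362 in shLuc senescent and 7776 in shLuc young, and HLA-C was alike as well (-0.27 ± 0.14). HLA-E was lower in shFbxo22 young (-0.75 ± 0.13), as were HLA-F (-0.99 ± 0.20) and the peptide transporter gene TAP1 (-0.52 ± 0.13). HLA genes share reads, so single values are uncertain. The peptide-trimming enzyme ERAP2 was higher in shFbxo22 young (0.87 ± 0.17), as were the chaperone gene CALR (0.66 ± 0.15) and the proteasome activator gene PSME2 (0.51 ± 0.14).

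Of the 12 complement genes tested, 11 were higher than in shLuc young in shFbxo22 young, and all 12 in shLuc senescent, in the authors' deposited tables. Between the groups 5 of 12 were lower in shFbxo22 young than in shLuc senescent, with 0 higher and 6 alike. The share called, 41.7%, was close to the 40% of all genes, but every complement call was lower. Over all genes 18.4% were lower and 21.6% higher. C3, the central component, averaged 991 in shFbxo22 young, 915 in shLuc senescent and 119 in shLuc young. SERPING1, the inhibitor of the first component, was alike (-0.32 ± 0.15). The proteases of that component were lower in shFbxo22 young, with a difference of -1.49 ± 0.12 for C1S and -1.04 ± 0.14 for C1R. CLU, a secreted chaperone, was near shLuc young in shFbxo22 young, at 1564, against 7119 in shLuc senescent and 1255 in shLuc young (-2.18 ± 0.15).

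**Figure D3:**
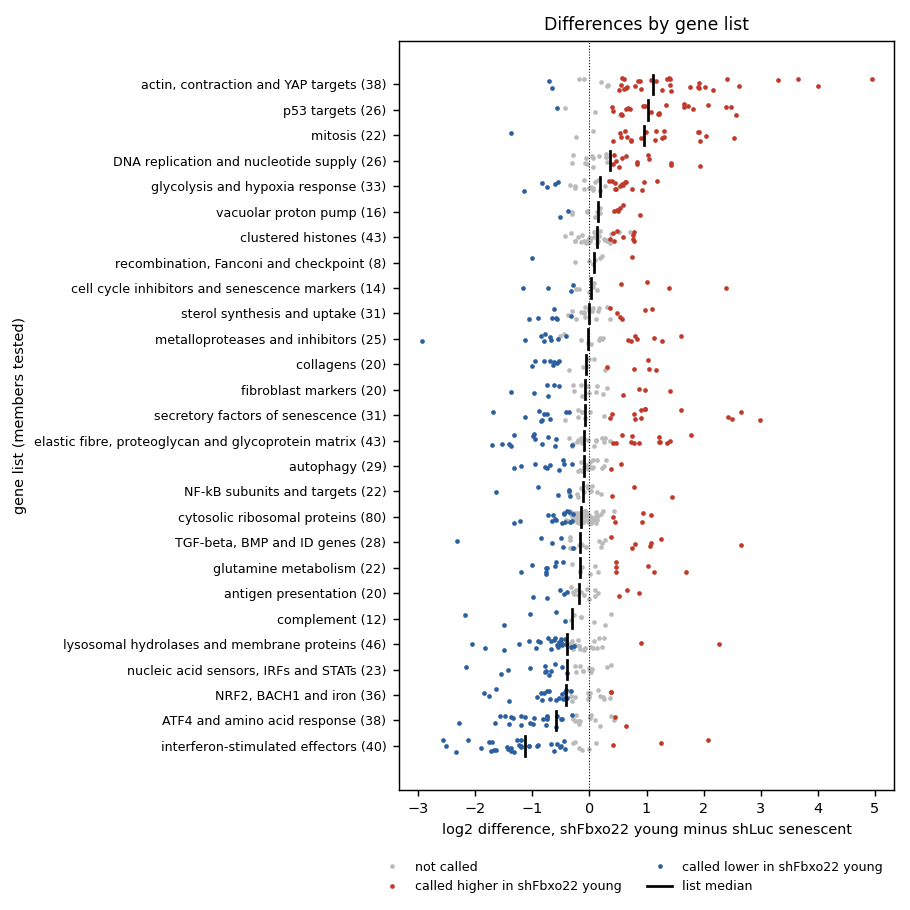
Log2 difference between shFbxo22 young and shLuc senescent (x axis) for each member of the gene lists with at least 8 members tested (y axis, number tested in brackets), with the list median as a bar. Medians run from 1.12 for actin, contraction and YAP targets to -1.13 for interferon-stimulated effectors.

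Most genes of actin, contraction and the YAP pathway were higher in shFbxo22 young than in shLuc senescent. YAP and its partner TAZ are co-activators that respond to cell tension and drive genes such as CTGF and CYR61 together with TEAD factors. Of 38 members that passed the floor, of 44 listed, 31 were higher in shFbxo22 young, 2 were lower and 5 were alike. The authors' deposited tables had 11 members higher and 12 lower in shFbxo22 young over shLuc young, and 2 higher and 33 lower in shLuc senescent over shLuc young. The median hairpin change was -0.04 and the median senescence change -1.17 in the authors' deposited tables, with a median difference of 1.12. ACTA2, smooth muscle actin, averaged 3918 normalized counts in shFbxo22 young, 308 in shLuc senescent and 1669.6 in shLuc young. Its hairpin change was 1.22 ± 0.09 and its senescence change -2.43 ± 0.11 in the authors' deposited tables, a 12.6-fold difference between the groups. CTGF, a matrix-associated signalling protein, averaged 1319 in shFbxo22 young, 81.3 in shLuc senescent and 845 in shLuc young (4.01 ± 0.19). CYR61, of the same family, averaged 4054 in shFbxo22 young, 409 in shLuc senescent and 2876 in shLuc young (3.30 ± 0.15). F3, tissue factor, which starts blood coagulation, averaged 2394 in shFbxo22 young, 77.2 in shLuc senescent and 1573 in shLuc young, a 30.8-fold difference. For all 4 the mean in shFbxo22 young was above that in shLuc young and the mean in shLuc senescent below it.

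The co-activator genes themselves did not share this. YAP1, named here after its values were seen, was alike (-0.17 ± 0.14). WWTR1, the gene of TAZ, was lower in shFbxo22 young, at 1454 against 2375 in shLuc senescent and 1159 in shLuc young (-0.71 ± 0.13). The kinase DCLK1 was also lower (-0.66 ± 0.23). MYH9, non-muscle myosin, was alike at 15535 in shFbxo22 young and 12408 in shLuc senescent, with 24554 in shLuc young, and the exchange factor ARHGEF17 was alike (0.19 ± 0.17).

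**Figure D4:**
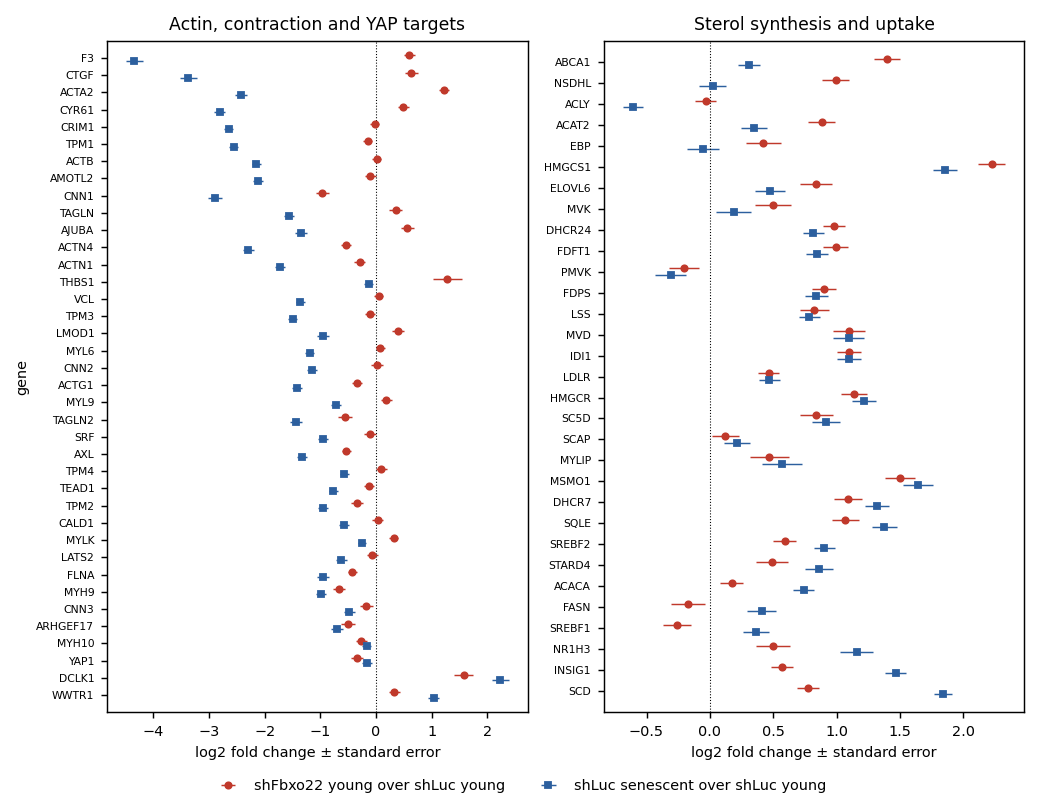
Log2 fold changes ± standard error (x axis, authors' deposited tables) of actin, contraction and YAP target genes and of sterol genes (y axis, ordered by difference), for shFbxo22 young over shLuc young (circles) and shLuc senescent over shLuc young (squares). The 2 marks part for 31 called actin genes and lie close for 16 alike sterol genes, whose lists have median differences of 1.12 and -0.0050.

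Several of the most different genes belong to no list that moved as a whole. KRT34, a hair keratin, averaged 1517 normalized counts in shFbxo22 young, 44.6 in shLuc senescent and 434 in shLuc young, a 33.3-fold difference (z test, Benjamini-Hochberg adjusted p = 2.61e-107). KRTAP1-5, which encodes a keratin-associated protein, had a difference of 3.67 ± 0.24. PSG5, a pregnancy-specific glycoprotein with near-identical relatives that make its level uncertain, averaged 8229.6 in shFbxo22 young, 332 in shLuc senescent and 901 in shLuc young (4.60 ± 0.15). CPA4, a secreted carboxypeptidase, averaged 2699 in shFbxo22 young, 187 in shLuc senescent and 712 in shLuc young (3.83 ± 0.17). ALDH1A1, which makes retinoic acid, averaged 8419.9 in shFbxo22 young, 951 in shLuc senescent and 1560.2 in shLuc young (3.12 ± 0.15). The actin-binding SYNPO2 had a difference of 2.93 ± 0.19. These 6 genes were higher in shFbxo22 young and lower in shLuc senescent than in shLuc young.

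In a further group the mean in shFbxo22 young was below or near that in shLuc young. OXTR, the oxytocin receptor, averaged 5459.9 in shFbxo22 young, 384 in shLuc senescent and 8663 in shLuc young (3.83 ± 0.15). IL7R, the interleukin 7 receptor, averaged 1813 in shFbxo22 young, 229 in shLuc senescent and 3425 in shLuc young (2.98 ± 0.15). The serpin gene SERPINB7 was near shLuc young in shFbxo22 young, at 483, against 44.1 in shLuc senescent and 534 in shLuc young. SGK223, a pseudokinase gene, was at 671 in shFbxo22 young, 78.6 in shLuc senescent and 644 in shLuc young.

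On the other side, SNED1, a matrix glycoprotein, had the most negative difference among genes called by both routes. It averaged 384 in shFbxo22 young, 3064 in shLuc senescent and 359 in shLuc young, 7.92-fold lower in shFbxo22 young than in shLuc senescent. MMP11, stromelysin 3, averaged 425 in shFbxo22 young, 3265 in shLuc senescent and 159 in shLuc young (-2.94 ± 0.21). DMKN, an epidermal secreted protein, averaged 1144 in shFbxo22 young, 6403 in shLuc senescent and 433 in shLuc young (-2.49 ± 0.16). MMP11 and DMKN were thus above shLuc young in both groups, and further above it in shLuc senescent. PTPRN, a phosphatase-like protein of secretory granules, lay below shLuc young in shFbxo22 young, at 498, against 3507 in shLuc senescent and 1325 in shLuc young (-2.81 ± 0.15). Rows for copies of small structural RNAs had negative differences with large errors, -2.74 ± 0.58 for RN7SKP185, -2.60 ± 0.42 for RN7SKP80, -2.54 ± 0.52 for RNY5 and -2.43 ± 0.38 for RN7SL712P. Those rows, MTRNR2L10 (-2.67 ± 0.30) and NAMPTL (-2.46 ± 0.23) share reads with near-identical copies, so these values are uncertain.

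**Figure D5:**
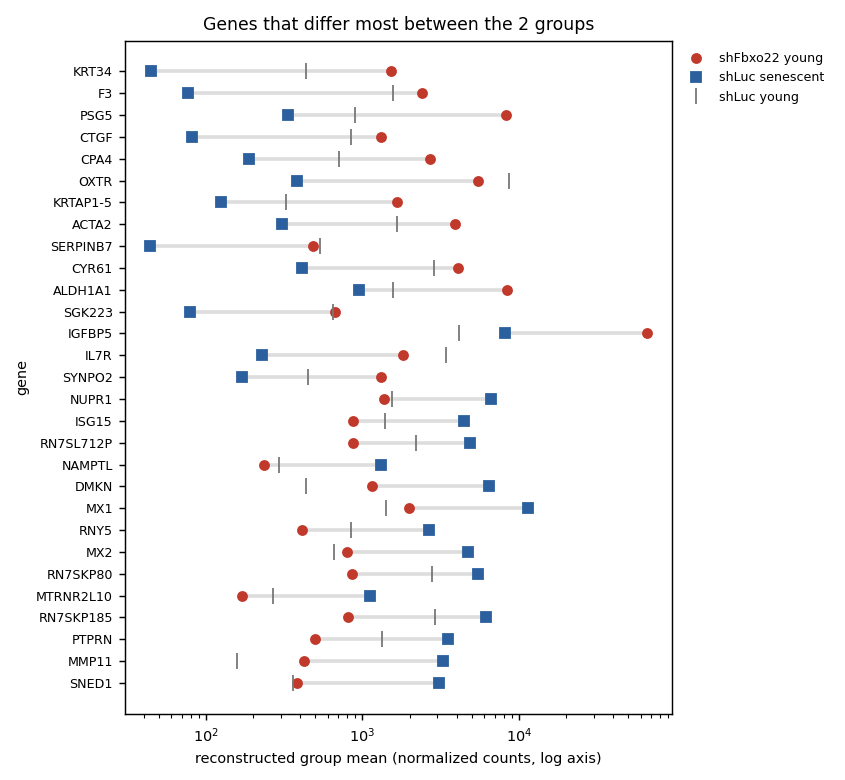
Reconstructed group means (x axis, normalized counts on a log axis) of the 15 genes with the most positive and 14 of the 15 with the most negative difference called by both routes (y axis), for shFbxo22 young (circles), shLuc senescent (squares) and shLuc young (ticks). The gap between circle and square is widest for KRT34, at 1517 in shFbxo22 young against 44.6 in shLuc senescent.

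Secretory factors of senescence went both ways between the groups. Of 31 members that passed the floor, of 58 listed, 13 were higher in shFbxo22 young, 10 were lower and 7 were alike, with a median difference of -0.08. Calls covered 74.2% of them, beside 40% of all genes. IL6, a cytokine of the secretory response, was alike at 617 normalized counts in shFbxo22 young and 703 in shLuc senescent, with 223 in shLuc young. IGFBP5, which binds insulin-like growth factors, averaged 66014 in shFbxo22 young, 8093 in shLuc senescent and 4113 in shLuc young (2.99 ± 0.13). IGFBP7, of the same family, was alike (-0.08 ± 0.17). INHBA, the activin A subunit, averaged 1062 in shFbxo22 young, 166 in shLuc senescent and 445 in shLuc young (2.66 ± 0.20), and the ligand gene NRG1 had a difference of 2.49 ± 0.20. Lower in shFbxo22 young were STC1, a glycoprotein hormone, at 829 against 2669 in shLuc senescent and 694 in shLuc young (-1.68 ± 0.15), and the growth factor gene FGF7 (-0.88 ± 0.21). With a base mean of 200 in at least 1 of the 2 tables that hold shLuc young, 36 members were tested, 15 were higher, 13 were lower and 7 alike. That setting added CHI3L1, a secreted chitinase-like protein, at 105 in shFbxo22 young, 4394 in shLuc senescent and 187 in shLuc young (-5.35 ± 0.22). It also added TNFAIP6, a hyaluronan-binding protein, at 157 in shFbxo22 young, 1200.0 in shLuc senescent and 185 in shLuc young (-2.91 ± 0.21), and the chemokine gene CXCL1 (-2.57 ± 0.25). These 3, named after their values were seen, were lower in shFbxo22 young, while the other two members added, IGFBP2 (0.87 ± 0.27) and SPP1 (1.56 ± 0.26), were higher. IL8, the chemokine now called CXCL8, was under the floor in both tables.

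NF-kB subunits and targets were called about as often as all genes (40.9% against 40%). Of 22 members, 12 were alike (1 of them also called), 3 were higher and 6 lower in shFbxo22 young. MAP3K8, a kinase upstream of NF-kB and ERK, was alike (-0.05 ± 0.25). PTGS2, cyclooxygenase 2, averaged 660.3 in shFbxo22 young, 240.1 in shLuc senescent and 229 in shLuc young (1.44 ± 0.21). CCL2, a chemokine, was also higher in shFbxo22 young (0.79 ± 0.19), as was the inhibitor gene TNIP1 (0.39 ± 0.13). SOD2, the mitochondrial superoxide dismutase, averaged 11441 in shFbxo22 young, 35607 in shLuc senescent and 4486 in shLuc young (-1.64 ± 0.12). IER3 (-0.89 ± 0.17) and the subunit gene RELB (-0.54 ± 0.22) were lower too.

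Matrix metalloproteases and their inhibitors were divided, with 7 of 25 higher, 9 lower and 7 alike. Calls covered 64% of them, beside 40% of all genes (21.6% higher and 18.4% lower). MMP3, stromelysin 1, averaged 13607 normalized counts in shFbxo22 young, 4469 in shLuc senescent and 18700.4 in shLuc young (1.60 ± 0.11). MMP1, interstitial collagenase, went the other way, with 3512 in shFbxo22 young, 7704 in shLuc senescent and 7745 in shLuc young (-1.13 ± 0.16). MMP14, a membrane-bound protease, was lower in shFbxo22 young as well (-0.86 ± 0.12). ADAMTS12 (1.27 ± 0.18) and ADAM19 (1.12 ± 0.12) were higher, and the sheddase gene ADAM17 was alike (-0.15 ± 0.16).

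Of 46 lysosomal hydrolases and membrane proteins that passed the floor, of 50 listed, 25 were lower in shFbxo22 young than in shLuc senescent, 2 were higher and 19 were alike (2 of them also called), with a median difference of -0.38. The authors' deposited tables had 32 members higher and 2 lower in shFbxo22 young over shLuc young, and 38 higher and 1 lower in shLuc senescent over shLuc young. CTSK, a collagen-degrading cathepsin, averaged 16276 normalized counts in shFbxo22 young, 57675 in shLuc senescent and 4825 in shLuc young (-1.83 ± 0.14). CTSD, an aspartic protease, averaged 3634 in shFbxo22 young, 10293 in shLuc senescent and 3014 in shLuc young (-1.50 ± 0.17), and CTSF had the lowest difference of the list (-2.06 ± 0.16). CTSC, which activates serine proteases of immune cells, was the reverse, with 4977 in shFbxo22 young, 1034 in shLuc senescent and 4449 in shLuc young (2.26 ± 0.13). The fucosidase gene FUCA1 was higher as well (0.90 ± 0.23). LIPA, lysosomal acid lipase, was alike at 6561 in shFbxo22 young and 6371 in shLuc senescent, with 3352 in shLuc young, and so was the sulfatase gene IDS (-0.29 ± 0.14).

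Subunits of the proton pump that acidifies lysosomes did not share the direction of the hydrolases. Of 16 tested, 6 were higher in shFbxo22 young, 2 were lower and 7 were alike, with a median difference of 0.16. This is a share called of 50%, beside 40% of all genes. ATP6V0E2 (0.88 ± 0.20) and ATP6V1E1 (0.59 ± 0.12) were higher, ATP6AP2 was lower (-0.52 ± 0.14) and ATP6V1B2 was alike (0.09 ± 0.12). Autophagy genes were alike in 18 of 29 cases (1 of them also called), with 10 lower and 2 higher in shFbxo22 young. In both directions together 41.4% of autophagy genes were called, beside 40% of all genes. Their calls leaned to lower, while over all genes 18.4% were lower and 21.6% higher. SQSTM1, the cargo receptor p62, averaged 18347 in shFbxo22 young, 42258 in shLuc senescent and 22149.9 in shLuc young (-1.20 ± 0.14). RB1CC1, of the initiating kinase complex, averaged 1266 in shFbxo22 young, 3173 in shLuc senescent and 1292 in shLuc young (-1.32 ± 0.16). WIPI1, which binds the forming membrane, was lower too (-0.96 ± 0.16). BECN1 was higher in shFbxo22 young (0.56 ± 0.15), and MAP1LC3A and GABARAPL2, of the family that coats autophagosomes, were alike (0.06 ± 0.21 and -0.13 ± 0.18).

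Sterol synthesis and uptake genes were higher than in shLuc young in 25 of 31 cases in each group, in the authors' deposited tables, with median changes of 0.82 in shFbxo22 young and 0.82 in shLuc senescent. Between the groups 16 were alike (1 of them also called), 6 were higher and 7 lower in shFbxo22 young. The share called, 41.9%, was near the 40% of all genes. MSMO1, a demethylating enzyme of the pathway, averaged 2445 normalized counts in shFbxo22 young, 2679.9 in shLuc senescent and 862 in shLuc young. SQLE, squalene epoxidase, averaged 2665 in shFbxo22 young, 3285 in shLuc senescent and 1268 in shLuc young, alike here and called lower through the other 2 tables. NSDHL, a later enzyme, was higher in shFbxo22 young (0.97 ± 0.15), as were the cholesterol exporter gene ABCA1 (1.09 ± 0.13) and ACLY, which makes cytosolic acetyl-CoA (0.58 ± 0.11). SCD, the fatty acid desaturase, averaged 18138 in shFbxo22 young, 37806 in shLuc senescent and 10578 in shLuc young (-1.06 ± 0.12). INSIG1, which holds back the sterol sensor, was lower as well (-0.90 ± 0.12), and so was the sterol receptor gene NR1H3 (-0.66 ± 0.19).

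The response to amino acid shortage, driven by the factor ATF4, was lower in shFbxo22 young than in shLuc senescent for 23 of 38 members, with 2 higher and 12 alike (1 of them also called) and a median difference of -0.58. NUPR1, a stress-induced nuclear protein, averaged 1363 normalized counts in shFbxo22 young, 6635 in shLuc senescent and 1541 in shLuc young (-2.28 ± 0.15). TRIB3, a pseudokinase, averaged 1471 in shFbxo22 young, 4633 in shLuc senescent and 894 in shLuc young (-1.66 ± 0.15). DDIT3, encoding the stress factor CHOP, averaged 1249 in shFbxo22 young, 3688 in shLuc senescent and 951 in shLuc young (-1.56 ± 0.16). For these 3 genes shFbxo22 young was nearer to shLuc young than to shLuc senescent. The transporters SLC7A1 (0.64 ± 0.13) and SLC7A5 (0.45 ± 0.16) were higher in shFbxo22 young, and the lipoprotein receptor gene VLDLR was alike (-0.29 ± 0.15).

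Of 36 genes of NRF2, BACH1 and iron, which govern antioxidant and iron handling, 21 were lower in shFbxo22 young, 2 were higher and 13 alike (2 of them also called), with a median difference of -0.41. FTH1, the ferritin heavy chain, averaged 6498 normalized counts in shFbxo22 young, 23244 in shLuc senescent and 3347 in shLuc young (-1.84 ± 0.14). AKR1C1, an aldo-keto reductase with close relatives, averaged 445 in shFbxo22 young, 1509 in shLuc senescent and 344 in shLuc young (-1.76 ± 0.18). SLC40A1, the iron exporter ferroportin, was alike at 414 in shFbxo22 young and 417 in shLuc senescent, with 71.9 in shLuc young. NCOA4, the receptor that sends ferritin to lysosomes, was higher in shFbxo22 young (0.38 ± 0.13), and the transferrin receptor gene TFRC was called higher within 1.5-fold (0.37 ± 0.13).

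Collagen genes were higher in 5 of 20 cases, lower in 8 and alike in 6 (1 of them also called). For these and the other matrix genes below, the shares over all genes were 21.6% higher, 18.4% lower and 48.2% alike. COL11A1 (1.16 ± 0.15), COL8A1 (1.04 ± 0.14) and COL5A2 (1.03 ± 0.13) were higher in shFbxo22 young. COL18A1 (-1.001 ± 0.19), COL16A1 (-0.96 ± 0.16) and the basement membrane chain COL4A2 (-0.80 ± 0.16) were lower, and COL3A1 and COL13A1 were alike. Among 43 genes of elastic fibres, proteoglycans and matrix glycoproteins, 13 were higher, 13 lower and 16 alike (1 of them also called). The matrix protein THBS1 averaged 325011 in shFbxo22 young, 116641 in shLuc senescent and 130507 in shLuc young (1.41 ± 0.27). FBN2, a fibrillin, had a difference of 1.36 ± 0.13 and the crosslinking enzyme gene LOXL4 one of 1.79 ± 0.16. TNXB, a tenascin, averaged 420.2 in shFbxo22 young, 1372 in shLuc senescent and 157 in shLuc young (-1.71 ± 0.22), and the microfibril gene MFAP4 (-1.53 ± 0.16) and the glypican GPC6 (-1.41 ± 0.18) were lower as well. The small proteoglycans DCN and PODN were alike, DCN at 27029 in shFbxo22 young and 32553 in shLuc senescent, with 6275 in shLuc young.

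Fibroblast markers were alike in 10 of 20 cases, with 4 higher and 6 lower in shFbxo22 young. Over all genes 48.2% were alike, 21.6% higher and 18.4% lower. PRRX1, a homeobox factor of mesenchyme, averaged 6537 normalized counts in shFbxo22 young, 16877 in shLuc senescent and 6035 in shLuc young (-1.37 ± 0.12), and FAP (-0.98 ± 0.16) and PDGFRA (-0.74 ± 0.13) were lower too. THY1 (0.97 ± 0.14), S100A4 (1.41 ± 0.12) and LOX (0.88 ± 0.14) were higher, and LUM was alike (-0.15 ± 0.15). Markers of this cell type thus moved in both directions between the groups, as genes did in general.

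Of 28 TGF-beta, BMP and ID genes, 7 were higher, 6 lower and 12 alike (1 of them also called), and 4 were not resolved. The share called was 46.4%, beside 40% of all genes. BMP4, a ligand, averaged 559.8 in shFbxo22 young, 233 in shLuc senescent and 326 in shLuc young (1.245 ± 0.23). FSTL3, an activin inhibitor, was higher (1.08 ± 0.18), and the ligand TGFB1 (-0.85 ± 0.17) and the signal transducer SMAD9 (-0.66 ± 0.19) were lower. The receptor genes TGFBR3 (0.20 ± 0.14) and ACVR1 (-0.30 ± 0.17) were alike.

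Glycolysis and hypoxia genes were higher in shFbxo22 young in 14 of 33 cases, lower in 5 and alike in 13. For this and the next 2 lists, the shares over all genes were 21.6% higher, 18.4% lower and 48.2% alike. The glycolytic enzymes LDHA (1.18 ± 0.14), PGK1 (0.95 ± 0.14) and ENO1 (0.93 ± 0.12) led the higher ones, LDHA with 20113 normalized counts in shFbxo22 young, 8837 in shLuc senescent and 22910.3 in shLuc young. The lower ones were CA12, a carbonic anhydrase (-1.15 ± 0.15), BNIP3L, a receptor for the removal of mitochondria (-0.84 ± 0.15) and VEGFA, the vascular growth factor (-0.74 ± 0.18), with 2 more. ALDOC and the glucose transporter SLC2A1 were alike (0.02 ± 0.19 and 0.09 ± 0.15). Glutamine genes were higher in 6 of 22 cases, lower in 9 and alike in 6. CTPS1, which makes CTP, averaged 1202 in shFbxo22 young, 369.8 in shLuc senescent and 2542 in shLuc young (1.70 ± 0.14). The aminotransferase GOT2 was higher in shFbxo22 young as well (1.12 ± 0.13). The transporters SLC1A5 (-1.20 ± 0.13) and SLC38A1 (-1.01 ± 0.14) were lower. Cytosolic ribosomal protein genes were alike in 58 of 80 cases (4 of them also called), with 5 higher and 16 lower and a median difference of -0.14.

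Genes that were alike in the 2 groups although far from shLuc young included secreted, lipid-binding and nuclear proteins. TXNIP, which binds thioredoxin, had the largest senescence change among alike genes, and averaged 4456 normalized counts in shFbxo22 young, 5201 in shLuc senescent and 562 in shLuc young. FABP3, a fatty acid binding protein, averaged 2096 in shFbxo22 young, 2366 in shLuc senescent and 316 in shLuc young. PTGIS, prostacyclin synthase, averaged 4678 in shFbxo22 young, 5896 in shLuc senescent and 901 in shLuc young, and its difference of -0.34 ± 0.14 was within 1.5-fold though called. TMPO, a lamin-binding protein of the nuclear envelope, was low in both, at 804 in shFbxo22 young and 686 in shLuc senescent, with 3372 in shLuc young. These genes were chosen for being alike, so their closeness is a description.

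The same difference taken through the libraries labelled shFbxo22 senescent, from the other 2 tables, had a median absolute gap of 0.0065 to the values above and a gap over 0.1 in 89 genes. Of 3645 called genes, 3507 were called by both routes and 0 had the opposite sign by the other one. Since the 4 tables close a loop over the same 12 libraries, this checks the arithmetic and the signs and is no independent replicate.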

How the data were processed

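Total RNA of 12 libraries, 3 in each of 4 groups, was sequenced after library making with an Ion Total RNA-Seq kit, per the labels' protocols. The submitters' processing notes name Bowtie2 2.0.0, STAR 2.3.0, DESeq2 1.14.1, R 3.2.2, hg19 and GRCh37 without roles. Each of 4 tables compares 2 groups and holds 55765 rows. Per the file headers, the authors deposited a base mean (mean normalized count of 6 libraries, a signal), a log2 fold change with its standard error, a test statistic (a score), and a p-value with its adjusted p-value. Low genes have fold changes moderated towards 0. Rows with dates for symbols (28) were left out.

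Counts per library were not analysed here, so edgeR was not used. The tables' signs were chosen so that each group's mean met across tables: the mean absolute log2 gap was 0.0051, against 0.1283 for the next of 16 choices. With the 2 tables that hold shLuc young alone it was 0.0041 against 0.3909. These 2 tables keep their deposited sign. The difference over the root of its summed squared standard errors was read as a two-sided normal z, Benjamini-Hochberg adjusted over 9109 genes, and called at 0.05. The test was checked on differences simulated with the same standard errors that it uses. The sign choice was rerun on the authors' tables with known flips, an outcome that the first choice had fixed. Tables were handled with Python 3.11.15, pandas 2.3.3 and scipy 1.17.1.

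Members and gene lists were chosen with earlier results of these data known, so list counts are descriptions. Named genes are the 15 most positive and 15 most negative differences called by both routes, the 10 alike genes with the largest senescence rise and fall, the marker list with FBXO22, KDM4A, MDM2, IL6 and IL8, and, per list, up to 3 called members each way and 2 alike members. Genes whose promoters are printed were chosen by motif and list rank, and other exceptions are named. A few genes the rule would name are not reported here. Promoters come from RefSeq (GRCh38.p14), while the files use hg19 and give no coordinates. Alternatives were the other route, centring, another error, other floors and other bounds.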

Additional observations from a re-analysis of the deposited data

How the results depend on the processing

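The called genes (3645, with 1966 higher and 1679 lower in shFbxo22 young) stayed within 1.5 times of these counts through the other 2 tables (3660), centred on the median (3637), with the summed squares under the root multiplied by 0.5 (5152), with a floor of 50 (4598) or none (5066), and, both added after the data had been seen, with the floor in the 2 tables only (3860) or in at least 1 of them (4268). A floor of 1000 left 3588 genes, of which 1646 were called, 909 higher and 737 lower, as fewer genes were tested. The number tested also changed from 9109 to 12635 with a floor of 50 and 19959 with none. The share of tested genes that was called was thus lower in those settings, and higher with a floor of 1000. Requiring a difference of at least 2-fold left 775, with 414 higher and 361 lower. Alike genes numbered 4395, and 844 with a log2 bound of 0.32, or 7421 with one of 1, in place of 0.58. Of 225 named genes, TRIM5 lost its call on centring, GLB1 and HMGA1 lost theirs and SQLE gained one through the other 2 tables, and 15 gained a call with the smaller error. No named gene called in the main or the alternative setting changed direction. Some uncalled genes with small differences, such as CDKN2B and MCM2, changed sign through the other 2 tables. The median mitosis difference was 0.79 through the other 2 tables and 1.15 with the floor in 2 tables. No paired analysis was possible because the tables hold no value per library, and for the same reason no replicate could be left out. Depth per library is unknown, which leaves the precision of low genes resting on the authors' standard errors.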

Other observations

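Among the cytosolic ribosomal protein genes, members with a paralog differed in opposite directions. RPL22, a ribosomal protein of the large subunit, averaged 1681 normalized counts in shFbxo22 young, 2774 in shLuc senescent and 1773 in shLuc young, a difference of -0.72 ± 0.16. Its paralog RPL22L1 averaged 1587 in shFbxo22 young, 834 in shLuc senescent and 1122 in shLuc young, a difference of 0.92 ± 0.16. RPL26L1, a paralog of RPL26, had a difference of 1.08 ± 0.21, and RPL26, chosen after its values were seen, one of -0.63 ± 0.19. RPS27L, also listed as a p53 target, averaged 3386 in shFbxo22 young, 1766 in shLuc senescent and 1827 in shLuc young. Outside the fibroblast lists, MITF, a factor of pigment cells that other cells express too, averaged 1097 in shFbxo22 young, 1912 in shLuc senescent and 808 in shLuc young, and the desmosome gene DSP had a difference of 0.49 ± 0.14.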
